A study of Mus musculus with 68 samples.

Results

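The Cxcl12 chemokine system was followed in the first 2 pharyngeal arches of mouse embryos through 4 genes: the ligands Cxcl12 and Cxcl14, the signalling receptor Cxcr4 and the atypical receptor Ackr3. The genes were taken as the rows of the deposited expression table whose Ensembl identifiers carry these 4 symbols, so they are 4 of the 21948 genes in the table. All 4 were among the 18428 genes kept for testing, with at least 1 CPM (reads of a gene scaled to a common library total) in at least 3 libraries. Polyadenylated RNA had been sequenced from arches dissected by hand from embryos of a CBA/Ca/J x C57BL/10 strain at embryonic days E9.0 and E9.5 and then at E10.0 and at E10.5. PA1, which forms the jaws, and PA2, the next arch toward the tail, came from the same embryo. In wildtype there were 5, 5, 5 and 3 PA1 libraries from the earliest to the latest stage, and 4, 4, 5 and 3 of PA2. Embryos labelled Hoxa2-/-, carrying that genotype label for the homeobox gene Hoxa2 that is active in PA2, gave 4, 5, 5 and 3 libraries of each arch. This made 68 libraries in 16 groups from 35 embryos, 33 of them with both arches. No other allele or treatment is named in the labels. Whether wildtype and labelled embryos were littermates is not given in the sources used here.

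Chemokines are small secreted proteins that steer migrating cells. Cxcl12, made mainly by mesenchyme, signals through the G protein-coupled receptor Cxcr4, which is known on endothelial cells, blood cells and subsets of neural crest. Ackr3 binds Cxcl12 but does not couple to G proteins in the classical way, and it takes up and removes Cxcl12 and the peptide adrenomedullin, which shapes where the ligand is found. Cxcl14 is a conserved CXC chemokine of epithelia and mesenchyme that has been reported to bind Cxcr4, although its receptor is less settled.

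Recovered reads per library ranged from 8912251 to 20619153, and all 4 genes had reads in every library. Hoxa2 was not lower in the libraries labelled Hoxa2-/-, so the level of the targeted gene does not by itself show the label. In PA2 it averaged 22.3, 40.7, 47.5 and 58.3 CPM in wildtype and 28.7, 60.7, 97.7 and 132 CPM under the label, and it was higher under the label at E10.0 (log2 difference 1.02, adjusted p = 0.00011) and E10.5 (1.16, adjusted p = 6.9e-05). Whole-gene values do not show whether the altered part of the gene was read, and every direction between labels below is between libraries as labelled. In 19 genes the 24 wildtype libraries from stages other than E10.0 did not overlap the remaining 44, so at these 3 stages the label and this division of the libraries cannot be told apart. At E10.0 both labels lie on the same side of it. Of the libraries, 5 stood apart by blood or yolk sac transcripts, among them wildtype PA2 replicate 2 at E9.0, with 63564 CPM of summed erythroid markers against a group median of 4302. All 8 arch mesenchyme markers were in the table, and their sum, which ran from 394 to 1181 CPM over the libraries, differed between the arches and with stage as described with the other marker lists. In bulk tissue, fewer cells of a type and less RNA per cell cannot be told apart.

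The 4 genes lie on 3 chromosomes of the mm10 build, placed with the GENCODE M21 annotation. Cxcl12 (ENSMUSG00000061353) is at chr6:117168535-117181367 on the plus strand, and Cxcl14 (ENSMUSG00000021508) is at chr13:56288643-56296551 on the minus strand. Cxcr4 (ENSMUSG00000045382) is at chr1:128588199-128592293 on the minus strand, and Ackr3 (ENSMUSG00000044337) is at chr1:90203980-90216751 on the plus strand. All 4 are protein-coding genes. The 250 bases before the start of Cxcl12, Cxcr4 and Ackr3 are shown because Cxcl12 and Cxcr4 were both higher in PA2 while Ackr3 was not. They are chr6:117168285-117168534, chr1:128592300-128592549 and chr1:90203730-90203979, written 5′ to 3′ on the strand of the gene, from RefSeq on GRCm38.p6 (mm10), and none overlaps an annotated exon. Capitals mark the GC box GGGCGG and, as the second motif searched, the TATA box TATAAA, each on either strand:
Cxcl12: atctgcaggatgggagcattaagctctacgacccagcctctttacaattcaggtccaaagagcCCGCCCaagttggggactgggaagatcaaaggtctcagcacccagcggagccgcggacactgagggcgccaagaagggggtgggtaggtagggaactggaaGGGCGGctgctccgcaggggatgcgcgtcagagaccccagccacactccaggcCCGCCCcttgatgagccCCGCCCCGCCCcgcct
Cxcr4: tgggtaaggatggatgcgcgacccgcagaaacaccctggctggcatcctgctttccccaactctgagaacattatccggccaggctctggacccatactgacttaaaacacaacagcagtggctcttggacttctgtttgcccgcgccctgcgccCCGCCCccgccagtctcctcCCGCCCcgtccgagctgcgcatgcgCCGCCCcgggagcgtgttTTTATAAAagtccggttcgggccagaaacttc
Ackr3: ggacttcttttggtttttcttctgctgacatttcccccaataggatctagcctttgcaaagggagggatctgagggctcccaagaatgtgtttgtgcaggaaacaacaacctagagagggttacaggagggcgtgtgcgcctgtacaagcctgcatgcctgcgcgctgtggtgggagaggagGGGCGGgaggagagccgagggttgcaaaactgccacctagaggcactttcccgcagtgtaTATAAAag
The Cxcl12 window held 5 GC boxes and no TATA box. The Cxcr4 window held 3 GC boxes and 2 overlapping TATA matches that begin 32 and 30 bases before the start. In the Ackr3 window there were 1 GC box and 1 TATA match beginning 8 bases before the start. Of 32817 promoter windows of the same length, 32.7% held GGGCGG and 12.4% held TATAAA. The Hox-Pbx motif TGATNNAT, present in 7.69% of windows, and the Meis motif TGACAG, present in 15.9%, had no match in the windows of the 4 genes, which says only that these letters are not in these windows. Of the hypoxia response cores, ACGTG (16.6% of windows) had no match in the 4, and GCGTG (28.1%) had 1 in Cxcr4, 1 in Ackr3 and 2 in Cxcl14. GC content was 64.4% for Cxcl12, 61.2% for Cxcr4, 54% for Ackr3 and 59.6% for Cxcl14, against a median of 52.4%.

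Per kilobase of annotated exon, Cxcl12 had the highest mean of the 4 genes in 14 of the 16 groups and Cxcl14 in 2, PA1 at E10.5 of either label. The length joins all annotated exons of a gene, 8176 bases for Cxcl12 and 1827 for Cxcl14, and the order depends on it. The mean of Cxcl12 over all libraries was 15.7 CPM per kb, against 4.1 for Cxcl14, 3.02 for Ackr3 and 1.25 for Cxcr4. Group means of Cxcl14 ran from 0.194 to 23.5 CPM per kb, those of Cxcl12 from 10.2 to 23, those of Ackr3 from 1.39 to 7.25 and those of Cxcr4 from 0.354 to 2.39. In wildtype PA1 at E10.5, Cxcl14 had 23.5 CPM per kb and Cxcl12 had 11, while in PA1 under the label at that stage the values were 13.5 and 11.3. Before division by length, Cxcl12 was the higher, with 89.6 CPM against 42.9 CPM in wildtype and 92.4 CPM against 24.6 CPM under the label.

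**Figure D1:**
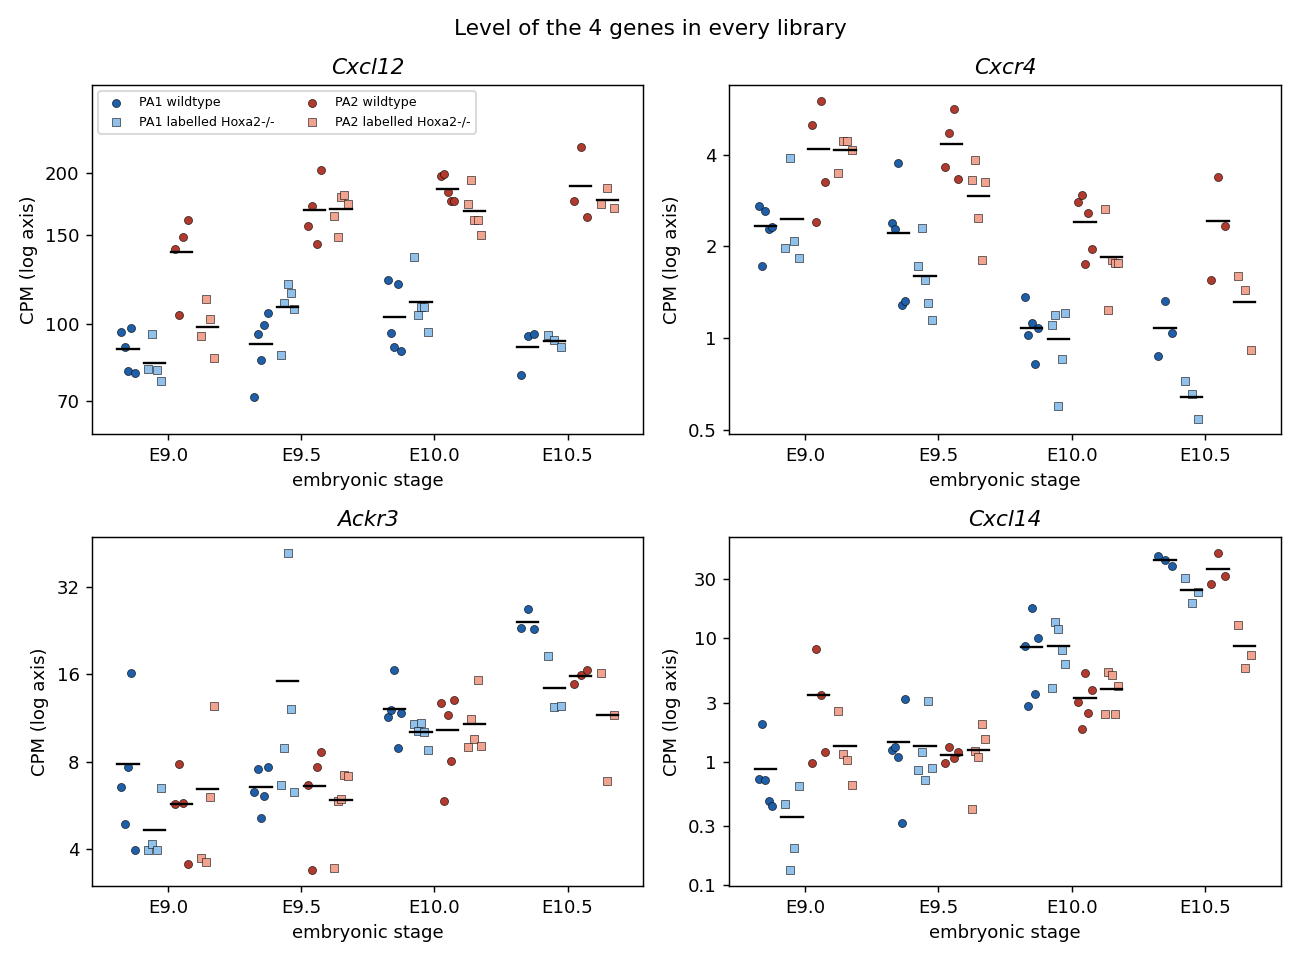
Level of Cxcl12, Cxcr4, Ackr3 and Cxcl14 in every library, in CPM on a log axis, by embryonic stage. Each point is 1 library, horizontal bars are group means, and colours and symbols give arch and label. Cxcl12 lies higher in PA2 than in PA1, Cxcr4 falls from E9.0 to E10.5, and Cxcl14 rises to means between 8.64 and 42.9 CPM at E10.5.

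Cxcl12, the ligand, was higher in PA2 than in PA1 in all 33 embryos with both arches. Among the 18428 tested genes, 1.02% were higher in PA2 in every such embryo and 0.206% were higher in PA1 in every one. In the limma test (linear models over all genes on log2(CPM + 1), two-sided, threshold an adjusted p of 0.05), Cxcl12 was higher in PA2 at all 4 wildtype stages and at 3 of 4 stages under the label. At E9.0, wildtype PA1 measured 96.3, 89.6, 80.3, 98.1 and 79.7 CPM and wildtype PA2 measured 141, 104, 149 and 161 CPM. At E9.5, wildtype PA1 measured 71.4, 95.4, 84.6, 99.4 and 104.6 CPM and wildtype PA2 measured 157, 172, 144 and 203 CPM. The arches did not overlap at either stage, and the lowest PA2 value at E9.0 was in the library rich in erythroid markers. At E10.0 the PA1 values were 122, 95.6, 89.8, 120 and 88.2 CPM and the PA2 values were 197, 199, 183, 176 and 176 CPM. At E10.5 they were 79, 94.4 and 95.5 CPM in PA1 and 176, 225 and 163 CPM in PA2. Again no PA2 library reached down to the PA1 range.

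The wildtype log2 differences of Cxcl12 were 0.62 ± 0.11 (SE), 0.89 ± 0.11, 0.86 ± 0.11 and 1.05 ± 0.14 from E9.0 to E10.5. Their adjusted p-values were 4.6e-05, 4.6e-08, 1.8e-08 and 1.6e-07. As ratios of group means these are 1.56, 1.86, 1.81 and 2.1. Wildtype arches differed in 18.7%, 26.3%, 5.94% and 1.52% of all tested genes at the 4 stages. Of the 4 chemokine system genes, 3, 2, 2 and 1 passed, and Cxcl12 was the one that still passed at E10.5, where the fewest genes did.

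Under the Hoxa2-/- label, the PA2 level of Cxcl12 at E9.0 was close to that of PA1. PA1 measured 81.2, 95.2, 80.8 and 76.6 CPM and PA2 measured 94.4, 112, 102 and 85.4 CPM. These ranges overlap, although PA2 was the higher arch in each of the 4 embryos, and the difference of 0.23 ± 0.12 did not pass (adjusted p = 0.15). At E9.5, PA1 measured 86.6, 110, 120, 115 and 107 CPM and PA2 measured 164, 149, 179, 181 and 173 CPM. The arches were separate from this stage on. At E10.0 the values were 136, 104, 108, 108 and 96.4 CPM in PA1 and 173, 194, 161, 161 and 150 CPM in PA2. At E10.5 they were 94.8, 92.6 and 89.9 CPM in PA1 and 173, 187 and 170 CPM in PA2. The 3 later differences were 0.65 ± 0.11, 0.60 ± 0.11 and 0.92 ± 0.14, with adjusted p-values of 1.1e-05, 8.1e-05 and 5.4e-06. Under the label, 24.6%, 9.58%, 4.23% and 1.37% of all tested genes differed between the arches, and 1, 3, 1 and 1 of the 4 genes did. The 7 calls of Cxcl12 passed in each of the 9 alternative analyses and without any single library.

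**Figure D2:**
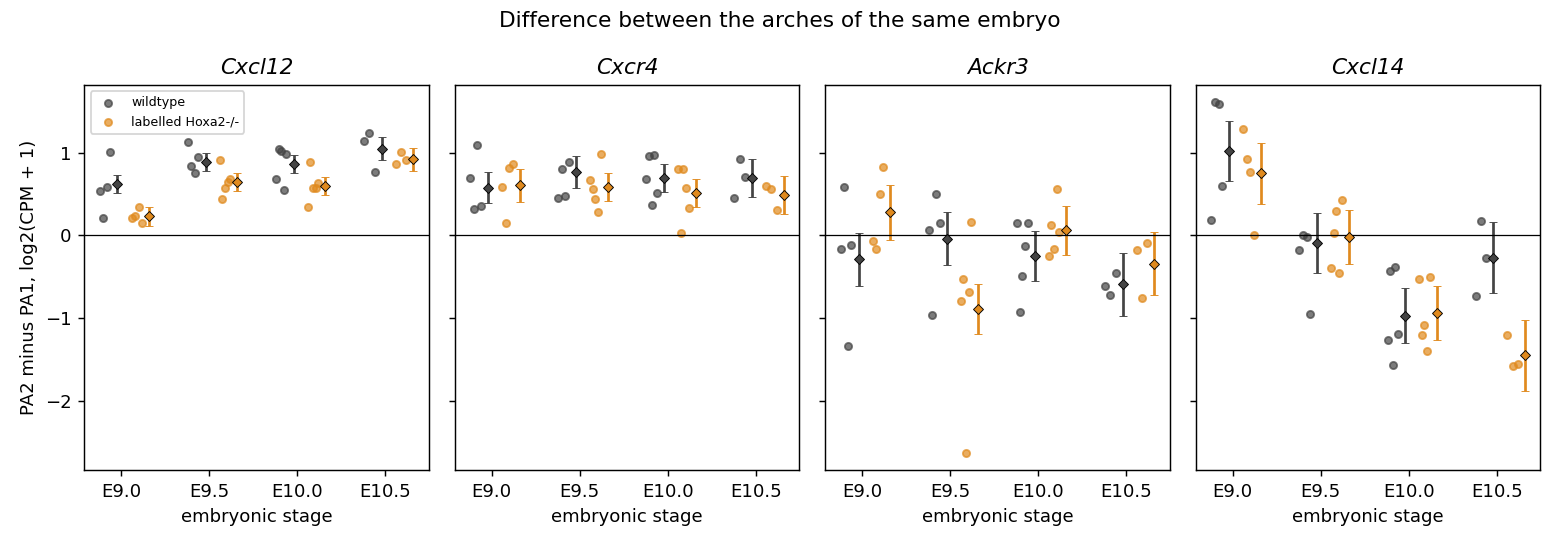
PA2 minus PA1 difference of the 4 genes on the log2(CPM + 1) scale, by stage. Each round point is 1 embryo with both arches, and diamonds with bars are the fitted difference of the group means ± SE. All 33 points lie above 0 for Cxcl12 and for Cxcr4, while those of Ackr3 and Cxcl14 lie on both sides.

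Of the 4 comparisons of E10.5 with E9.0, the 2 in PA2 passed for Cxcl12. Wildtype PA2 rose by a log2 difference of 0.44 ± 0.13 (adjusted p = 0.0057), from 139 ± 24.5 (SD, n = 4) to 188 ± 32.6 CPM (n = 3). PA2 under the label rose by 0.84 ± 0.13 (adjusted p = 7.6e-07), from 98.5 ± 11.3 (n = 4) to 176 ± 9.2 CPM (n = 3). In PA1 the means at E9.0 and E10.5 were 88.8 and 89.6 CPM in wildtype and 83.5 and 92.4 CPM under the label, with adjusted p-values of 0.94 and 0.41. The changes of the arches differed by 0.69 ± 0.18 under the label (adjusted p = 0.014) and by 0.43 ± 0.18 in wildtype (adjusted p = 0.21). The wildtype PA2 rise was lost without PA2 replicate 2 of E9.0 (0.31, adjusted p = 0.061) or of E10.5 (0.30, adjusted p = 0.11) and when the fit held no other groups than those compared (adjusted p = 0.063). Without the 5 libraries that stood apart it was lost too (0.31, adjusted p = 0.064).

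Between E9.0 and E10.5, 42.5% of all tested genes changed in wildtype PA1, 36.9% in wildtype PA2, 31.2% in PA1 under the label and 30.9% in PA2 under the label. Of the 4 genes, 3, 4, 3 and 3 did. The change differed between the arches for 3.35% of genes in wildtype and 7.33% under the label. In these 2 tests, 0 and 2 of the 4 genes passed.

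The rise of Cxcl12 in PA2 under the label came between E9.0 and E9.5, with a log2 difference of 0.78 ± 0.11 (adjusted p = 3.5e-06). That step changed 16.9% of all tested genes, and Cxcl12 was the only one of the 4 to pass in it. The corresponding wildtype PA2 step was 0.29 ± 0.12 (adjusted p = 0.12), in a step that changed 6.68% of genes. The difference between these 2 steps was not tested.

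The 16 group means of Cxcl12 ran from 83.5 CPM in PA1 under the label at E9.0 to 188 CPM in wildtype PA2 at E10.5. Of the 15 neighbouring pairs in this order, 13 lay within the larger SD of the pair. The exceptions were the steps on either side of wildtype PA2 at E9.0 (139 CPM), which stood below the 6 other PA2 groups of 168 CPM and more. All PA1 groups and PA2 under the label at E9.0 lay at 110 CPM or less.

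Between labels, Cxcl12 was lower in PA2 under the label at E9.0 by a log2 difference of -0.48 ± 0.12 (adjusted p = 0.0044). The PA2 values given above, 141, 104, 149 and 161 CPM in wildtype and 94.4, 112, 102 and 85.4 CPM under the label, overlap through wildtype replicate 2, the library with the high erythroid sum. Without the libraries that stood apart the difference was -0.63 (adjusted p = 0.0014), and in a fit limited to the compared groups the call was lost (adjusted p = 0.26). At E9.5 the PA2 means of both labels were 169 CPM, at E10.0 they were 186 in wildtype and 168 CPM under the label, and at E10.5 they were 188 and 176 CPM. None of these 3 passed, nor did any PA1 stage (lowest adjusted p = 0.09, at E9.5). Of all tested genes, 14%, 4.48%, 0.0814% and 10.3% differed between labels in PA2 at the 4 stages and 2.08%, 23.6%, 0% and 3.05% in PA1. At E10.0 in PA1, where limma called no gene, 424 had an unadjusted p under 0.05. Over the 32 tests of the 4 genes, 2 passed, Cxcl12 in PA2 at E9.0 and Cxcl14 in PA2 at E10.5, and 6 had an unadjusted p under 0.05.

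**Figure D3:**
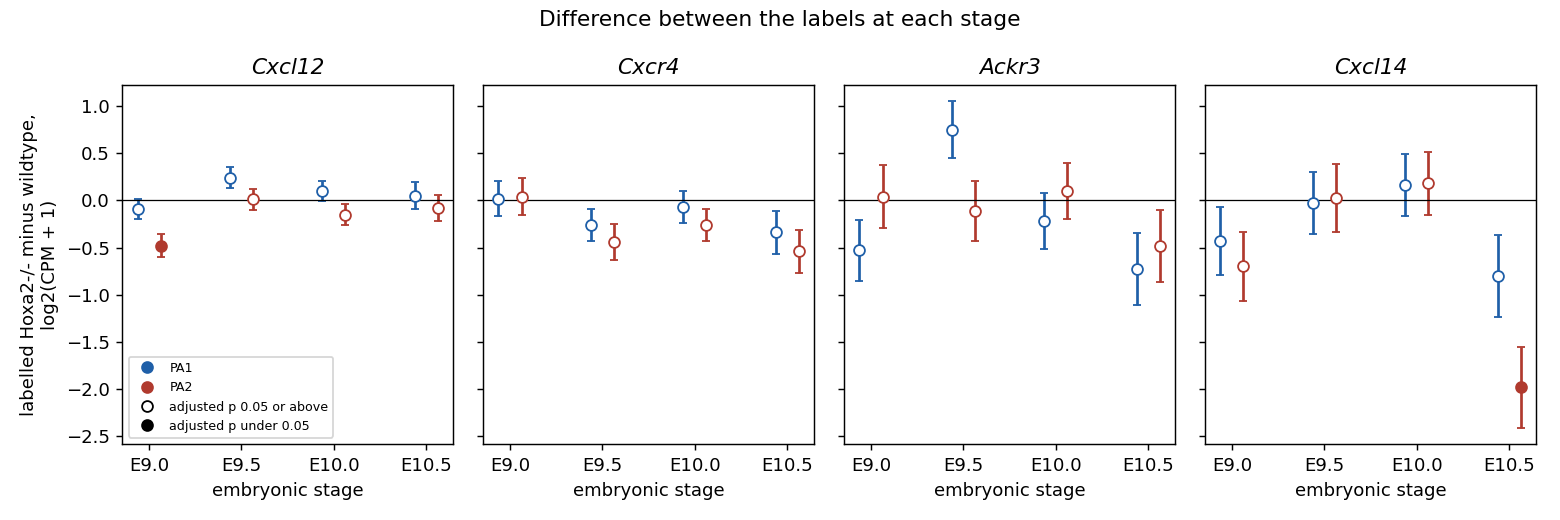
Difference between libraries labelled Hoxa2-/- and wildtype libraries for the 4 genes, on the log2(CPM + 1) scale, by stage and arch. Points are fitted differences ± SE, and filled points have an adjusted p under 0.05. The 2 filled points are Cxcl12 in PA2 at E9.0 (-0.48) and Cxcl14 in PA2 at E10.5 (-1.98).

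Whether the label difference was the same in both arches was tested at each stage. No gene of the 4 passed in the 16 tests (limma, 1 with an unadjusted p under 0.05, edgeR's quasi-likelihood test also 0). Of all tested genes, 0%, 0.0109%, 0.0163% and 0.038% passed at E9.0 to E10.5, and at E9.0, with 0 calls in limma, 1083 had an unadjusted p under 0.05. For Cxcl12 at E9.0 the PA2 minus PA1 value was -0.39 ± 0.17 (unadjusted p = 0.022, adjusted p = 0.82). For Cxcl14 at E10.5 it was -1.17 ± 0.61 (adjusted p = 1). The label differences given for 1 arch are therefore not shown to be particular to it.

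Cxcl14, the other ligand, rose most with stage. Wildtype PA1 had 0.731, 2.01, 0.718, 0.483 and 0.442 CPM at E9.0, and 46.4, 43.4 and 38.8 CPM at E10.5. Wildtype PA2 had 0.978, 8.18, 3.48 and 1.19 CPM at E9.0, the second of them in the library rich in erythroid markers, and 27.5, 49.4 and 32 CPM at E10.5. No E9.0 library came near the E10.5 range in either arch. Under the label, PA1 went from 0.458, 0.132, 0.199 and 0.631 CPM to 30.9, 19.3 and 23.6 CPM, and PA2 from 2.56, 1.15, 1.04 and 0.646 CPM to 12.8, 5.76 and 7.36 CPM. The values of 0.132 and 0.199 CPM rest on 2 recovered reads each. The log2 differences were 4.60 ± 0.39 in wildtype PA1, 3.31 ± 0.40 in wildtype PA2, 4.23 ± 0.40 in PA1 under the label and 2.03 ± 0.40 in PA2 under the label. Adjusted p-values were 1.7e-14, 1.9e-09, 4.5e-12 and 7.3e-05. As ratios of means the rises were 49 in wildtype PA1, 69.2 in PA1 under the label and 6.41 in PA2 under the label, which the added pseudocount of 1 shrinks on the log2 scale.

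Most of the rise of Cxcl14 came after E9.5. At E9.5, wildtype PA1 still had 1.25, 1.31, 1.09, 0.321 and 3.23 CPM and wildtype PA2 had 0.981, 1.32, 1.07 and 1.19 CPM. PA1 under the label had 0.858, 1.19, 0.705, 3.13 and 0.883 CPM and PA2 had 0.414, 1.23, 1.09, 2.01 and 1.53 CPM. All 4 groups were therefore near 1 CPM, and the step from E9.0 to E9.5 passed in none of them. From E9.5 to E10.5, Cxcl14 rose by 4.27 ± 0.39 in wildtype PA1 and 4.08 ± 0.40 in wildtype PA2 (adjusted p = 3.6e-13 and 1.3e-11), in steps that changed 40.9% and 34.3% of all tested genes. Of the 4 genes, 3 passed in each of these steps. Under the label, the step from E9.5 to E10.0 was 2.03 ± 0.33 in PA1 (adjusted p = 9e-05) and 1.10 ± 0.33 in PA2 (adjusted p = 0.041), where 4.4% and 4.57% of all genes changed. Cxcl14 was the only one of the 4 to pass there.

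The call in PA2 under the label did not hold in edgeR, with a pseudocount of 5 or in a fit limited to the compared groups. It was also lost without any of PA2 replicates 1, 2, 3 and 5 of E9.5 and 2, 3 and 5 of E10.0 (adjusted p from 0.056 to 0.16). From E10.0 to E10.5 under the label, 0.298% of genes changed in PA1 and 0.239% in PA2, and none of the 4 passed (lowest adjusted p = 0.07, Cxcl14 in PA1). For E9.0 to E9.5, the shares were 6.73% in wildtype PA1, where none of the 4 passed, and 2.85% in PA1 under the label, where Ackr3 did.

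Within embryos, the order of the arches in Cxcl14 was not the same at E9.0 and E10.0, and the change between these stages was not tested. At E9.0 Cxcl14 was higher in PA2 in 4 of 4 embryos of each label, with a difference of 1.02 ± 0.36 in wildtype (adjusted p = 0.035) and 0.75 ± 0.37 under the label (adjusted p = 0.14). In embryo 4 under the label the arches were nearly equal, at 0.631 CPM in PA1 and 0.646 CPM in PA2. The wildtype call was lost without the libraries that stood apart (0.56, adjusted p = 0.36), with a pseudocount of 5 (0.45) and in a fit limited to the compared groups (adjusted p = 0.11). It was lost as well without any of PA1 replicates 1, 3, 4 and 5 (adjusted p from 0.061 to 0.081) and PA2 replicates 2 (0.57, adjusted p = 0.31) and 4 (0.92, adjusted p = 0.1). At E9.5 the levels of both arches overlapped, with adjusted p-values of 0.89 and 0.98.

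At E10.0, Cxcl14 was the higher in PA1 in 5 of 5 embryos of each label. Wildtype PA1 had 8.73, 2.83, 17.5, 3.55 and 10 CPM and PA2 had 3.04, 1.85, 5.24, 2.5 and 3.83 CPM. Under the label, PA1 had 3.98, 13.6, 11.8, 8.05 and 6.15 CPM and PA2 had 2.45, 5.29, 5.06, 2.43 and 4.07 CPM. The libraries of both arches overlap in each label, while the order within each embryo was the same. The differences were -0.97 ± 0.33 in wildtype (adjusted p = 0.075) and -0.94 ± 0.33 under the label (adjusted p = 0.096). With the embryo as a block both passed (adjusted p = 0.018 and 0.025). At E10.5 the difference was -1.45 ± 0.43 under the label (adjusted p = 0.085, with the block 0.014 and with a pseudocount of 5 0.0034), where PA1 was above PA2 in 3 of 3 embryos and the arches did not overlap. In wildtype at E10.5 it was -0.27 ± 0.43 (adjusted p = 1), with PA1 above PA2 in 2 of 3 embryos. How many of all genes separate the arches without overlap, as under the label here, was not computed.

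The rise of Cxcl14 from E9.0 to E10.5 was smaller in PA2 than in PA1 under the label, by -2.20 ± 0.57 (adjusted p = 0.012). In wildtype the corresponding value was -1.29 ± 0.56 (adjusted p = 0.23). The label value was lost without PA1 replicate 1 (-2.03, adjusted p = 0.054) or PA2 replicate 2 (-1.97, adjusted p = 0.051) of E10.5.

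Between labels, Cxcl14 at E10.5 was lower under the label in PA2 by -1.98 ± 0.43 (adjusted p = 0.0014). The 3 PA2 libraries of each label did not overlap: 27.5 CPM was the lowest in wildtype and 12.8 CPM the highest under the label. The ratio of wildtype to label means was 4.2, and the call passed in all 9 alternatives (adjusted p from 6.4e-06 to 0.011) and without any single library. In PA1 at E10.5 the means were 42.9 ± 3.82 CPM (SD, n = 3) in wildtype and 24.6 ± 5.86 CPM (n = 3) under the label, again without overlap, but the difference of -0.80 ± 0.43 did not pass (adjusted p = 0.38). It passed in a fit limited to the compared groups (0.03). At E10.0 the means were 8.53 and 8.72 CPM in PA1 and 3.29 and 3.86 CPM in PA2 for wildtype and label. The groups overlapped there. Macrophage markers, summed, ran from 10.6 to 15 CPM in wildtype PA2 at E10.5 and from 3.65 to 9.23 CPM under the label. Neuron markers ran from 18.1 to 22.9 CPM in wildtype and from 8.06 to 12.5 CPM under the label, and endothelial markers from 172 to 194 and from 219 to 272 CPM. These 3 lists separated the labels without overlap, with 3 libraries on each side. How many of all genes separate the labels in this way was not computed for either arch, and 10.3% were called in this PA2 comparison. The part of these lists in the result was not tested. Erythroid markers at that stage overlapped, with 4294 to 7072 CPM in wildtype and 1932 to 6941 CPM under the label. Sums of epithelial and arch mesenchyme markers are not given for this comparison. Over the 8 comparisons between labels, 4.69% of epithelial tests and 10.9% of arch mesenchyme tests were called, against 7.2% over all genes.

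Cxcr4, the signalling receptor, was low in every group, with 0.544 to 6.01 CPM or 6 to 111 recovered reads per library. Like its ligand, it was higher in PA2 than in PA1 in all 33 embryos. At E9.0, wildtype PA1 had 2.72, 1.73, 2.61, 2.28 and 2.31 CPM and PA2 had 5, 2.41, 6.01 and 3.25 CPM. PA1 under the label had 1.98, 3.91, 2.09 and 1.83 CPM and PA2 had 3.49, 4.44, 4.45 and 4.15 CPM. The ranges overlapped through wildtype PA2 replicate 2 and through PA1 replicate 2 under the label. At E9.5, wildtype PA1 had 2.39, 2.28, 3.76, 1.28 and 1.32 CPM and PA2 had 3.64, 4.71, 5.64 and 3.32 CPM. Under the label, PA1 had 1.72, 2.29, 1.55, 1.3 and 1.15 CPM and PA2 had 3.31, 3.84, 2.47, 1.8 and 3.26 CPM. At E10.0 and E10.5 the arches did not overlap in either label, with 3 libraries on each side at E10.5. Under the label at E10.0, the highest PA1 value was 1.21 CPM and the lowest PA2 value 1.24 CPM. How many of all genes separate the arches in this way was not computed.

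At E10.0, Cxcr4 measured 1.36, 1.02, 1.12, 0.82 and 1.08 CPM in wildtype PA1 and 2.79, 2.94, 1.75, 2.57 and 1.96 CPM in PA2. Under the label the values were 1.1, 1.19, 0.6, 0.851 and 1.21 CPM in PA1 and 2.65, 1.24, 1.81, 1.77 and 1.76 CPM in PA2. At E10.5 wildtype PA1 had 0.871, 1.32 and 1.04 CPM and PA2 had 1.55, 3.37 and 2.33 CPM. Under the label PA1 had 0.722, 0.653 and 0.544 CPM and PA2 had 1.6, 1.44 and 0.911 CPM. The PA2 to PA1 ratio of means stayed between 1.68 and 2.24 over the 8 comparisons.

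The log2 differences of Cxcr4 between the arches were 0.58 ± 0.19, 0.77 ± 0.19, 0.70 ± 0.17 and 0.69 ± 0.23 in wildtype (adjusted p = 0.019, 0.0017, 0.006 and 0.14). Under the label the differences were 0.61 ± 0.20, 0.59 ± 0.17, 0.51 ± 0.17 and 0.49 ± 0.23 (adjusted p = 0.017, 0.022, 0.082 and 0.43). The pseudocount of 1 shrinks these values. Ratios of means were 1.79, 1.96, 2.22 and 2.24 in wildtype and 1.68, 1.83, 1.87 and 2.06 under the label. With the embryo as a block, wildtype E10.5 (adjusted p = 0.036) and E10.0 under the label (adjusted p = 0.023) passed too. In a fit limited to the compared groups, the calls at wildtype E9.0 (adjusted p = 0.067) and at E9.0 and E9.5 under the label (0.098 and 0.075) were lost.

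Single libraries bore on 3 of the 5 calls of Cxcr4. That at wildtype E9.0 was lost without PA1 replicate 2 (adjusted p = 0.061), PA2 replicate 1 (0.08) or PA2 replicate 4 (0.15). The call at E9.0 under the label was lost without PA1 replicate 1 (0.056), 3 (0.05) or 4 (0.068). At E9.5 under the label it was lost without PA1 replicate 4 (0.06) or 5 (0.071), or PA2 replicate 1 (0.054), 2 (0.087) or 5 (0.059). The log2 difference was 0.42 to 0.56 in those fits.

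Cxcr4 fell with stage in both arches and both labels. From E9.0 to E10.5 it fell by 0.68 on the log2 scale in wildtype PA1, from 2.33 ± 0.383 (SD, n = 5) to 1.08 ± 0.226 CPM (n = 3), with an adjusted p of 0.0049. In wildtype PA2 it fell by 0.57 (adjusted p = 0.027), from 4.17 ± 1.64 (n = 4) to 2.42 ± 0.913 CPM (n = 3). Under the label it fell by 1.04 in PA1 (adjusted p = 0.0001) and by 1.16 in PA2 (adjusted p = 1.8e-05), to 0.64 ± 0.0896 and 1.32 ± 0.361 CPM (n = 3 each). Ratios of means, E9.0 over E10.5, were 2.16 and 1.72 in wildtype PA1 and PA2 and 3.83 and 3.14 under the label. The added pseudocount of 1 makes the log2 falls smaller than these ratios. The wildtype PA2 fall was lost in a fit limited to the compared groups (adjusted p = 0.14). It was lost too without PA2 replicate 1 (adjusted p = 0.088) or 4 (0.14) of E9.0, or replicate 1 (0.22) or 3 (0.061) of E10.5. The change did not pass as different between the arches (adjusted p = 0.92 in wildtype and 0.87 under the label).

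Between E9.5 and E10.5 Cxcr4 fell by 0.58 in wildtype PA1 (adjusted p = 0.018) and by 0.65 in wildtype PA2 (adjusted p = 0.012). The PA1 step was lost in a fit limited to the compared groups (adjusted p = 0.072) and without PA1 replicate 3 of E9.5 (0.092) or replicate 1 (0.086) or 3 (0.051) of E10.5. The PA2 step was lost without replicate 3 of E9.5 (0.061) or replicate 1 of E10.5 (0.14). Between labels, none of the 8 tests of Cxcr4 passed, the lowest adjusted p being 0.12 in PA2 at E10.5 (-0.54 ± 0.23). In PA1 at E10.5 the 3 libraries under the label lay below the 3 wildtype libraries, but the difference did not pass (adjusted p = 0.52). How many of all genes separate the labels in this way was not computed.

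Markers of several other cell types differed with stage and between the arches, as Cxcr4 did. Of the migrating neural crest and glial markers, 4 of 5 were in the table and 3 were kept, and all 3 fell from E9.0 to E10.5 in each of the 4 comparisons, where 18.1% of the tests of all genes were lower. Their sum ran from 71.6 to 114 CPM in wildtype PA2 at E9.0 and from 19.3 to 28.8 CPM at E10.5, and from 76.4 to 118 to 17 to 22.7 CPM in wildtype PA1. Of 8 endothelial markers, 6 fell in wildtype PA1, 5 in wildtype PA2, 6 in PA1 under the label and 4 in PA2 under the label. Their sum went from 299 to 364 CPM at E9.0 to 164 to 191 CPM at E10.5 in wildtype PA1, and from 255 to 350 to 172 to 194 CPM in wildtype PA2. Between the arches, 5 of 24 tests of neural crest and glial markers were higher in PA2 and none lower, and of 64 tests of endothelial markers 1 was higher and 1 lower. Over all genes, 6.33% of the tests in these 8 comparisons were higher in PA2 and 5.21% lower. Cardiac markers were higher in PA2 at E9.0, where their sum ran from 28.9 to 1067 CPM in wildtype PA2 against 12.2 to 33.1 CPM in wildtype PA1. All 5 in the table passed at E9.0 in each label and 0 at E10.5, also 0 at an unadjusted p under 0.05. Of 7 cranial mesoderm and muscle markers, 36 of 56 tests were higher in PA2 and 10 lower, and their sum at E10.5 ran from 120 to 132 CPM in wildtype PA2 and from 102 to 112 CPM in wildtype PA1. Neuron markers, with 6 of 7 in the table and 5 kept, were higher in PA2 in 11 of 40 tests and lower in none. Their sum ran from 11.4 to 30.6 CPM in wildtype PA2 at E10.0 against 4.24 to 7.82 CPM in PA1, and from 18.1 to 22.9 against 9.84 to 14.8 CPM at E10.5.

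Arch mesenchyme markers were lower in PA2 in 19 of 64 tests and higher in 2. Their sum in wildtype PA2 lay below that in PA1 without overlap at E9.0 (394 to 474 against 642 to 698 CPM), E10.0 (606 to 736 against 906 to 1181 CPM) and E10.5 (756 to 837 against 977 to 1171 CPM). These values also show the rise with stage in both arches, and 16 of 32 tests of E10.5 against E9.0 were higher and 7 lower. The part of all these cell types in the results for Cxcl12, Cxcl14, Cxcr4 and Ackr3 was not tested.

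**Figure D4:**
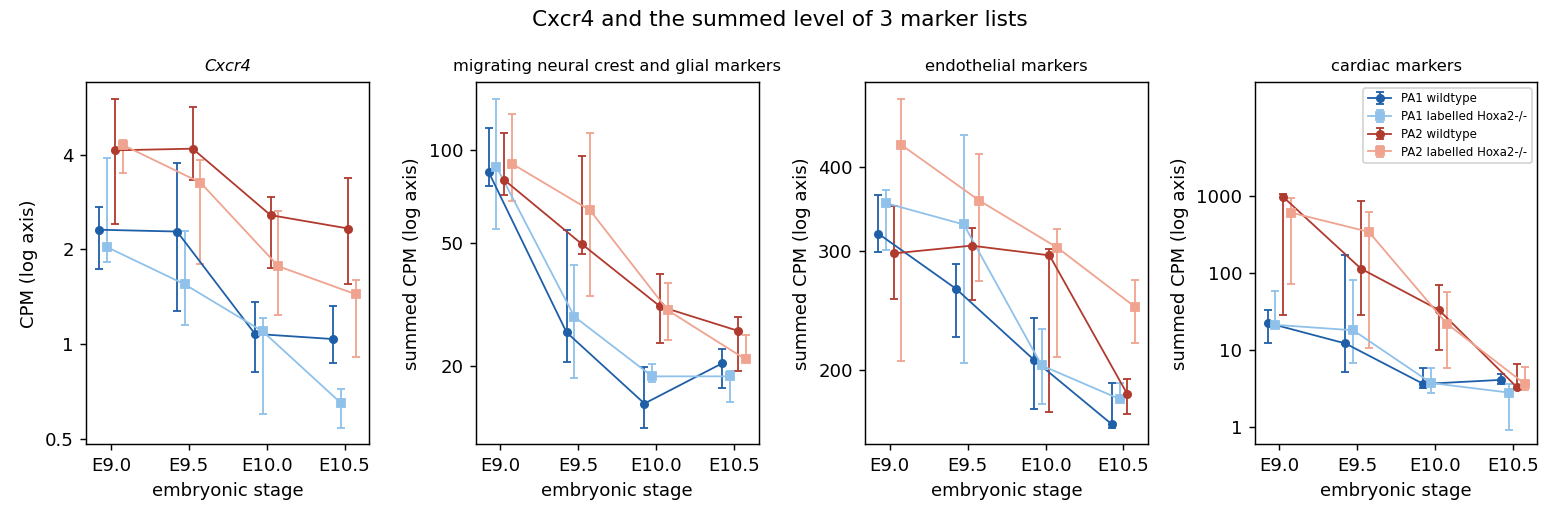
Cxcr4 level and the summed level of 3 marker lists by stage, in CPM on log axes. Points are group medians, bars run from the lowest to the highest library, and colours and symbols give arch and label. Cxcr4, the neural crest and glial list and the endothelial list fall with stage, and the cardiac list is highest in PA2 at E9.0, with up to 1067 CPM.

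Ackr3, the scavenging receptor, rose with stage. At E9.0, wildtype PA1 had 6.53, 4.88, 7.69, 16.2 and 3.98 CPM and wildtype PA2 had 5.72, 7.86, 5.79 and 3.57 CPM. At E10.5, PA1 had 23, 26.9 and 22.9 CPM and PA2 had 14.8, 15.9 and 16.5 CPM. The stages did not overlap in either wildtype arch. Under the label, PA1 went from 3.97, 4.17, 3.98 and 6.5 CPM to 18.5, 12.3 and 12.4 CPM, and PA2 from 3.75, 3.61, 6.06 and 12.4 CPM to 16.2, 6.88 and 11.6 CPM. The rises were 1.65 ± 0.34 in wildtype PA1 (adjusted p = 8e-05), 1.35 ± 0.36 in wildtype PA2 (adjusted p = 0.0022) and 1.45 ± 0.36 in PA1 under the label (adjusted p = 0.0014). In PA2 under the label, where the stages overlap, the value of 0.83 ± 0.36 did not pass (adjusted p = 0.072). It passed without replicate 4 of E9.0 (1.16, adjusted p = 0.013) or replicate 2 of E10.5 (1.13, adjusted p = 0.03).

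As with Cxcl14, the wildtype rise of Ackr3 lay after E9.5. Its values at E9.5 were 6.29, 7.53, 5.13, 6.09 and 7.68 CPM in PA1 and 6.68, 3.39, 7.67 and 8.66 CPM in PA2, within the E9.0 range except for the lowest and highest PA2 libraries. From there to E10.5 it rose by 1.75 ± 0.34 in PA1 (adjusted p = 3.7e-05) and 1.20 ± 0.36 in PA2 (adjusted p = 0.0072). At E10.0, wildtype PA1 had 11.4, 12.1, 16.6, 8.93 and 11.8 CPM and PA2 had 12.7, 5.87, 11.6, 8.05 and 13.1 CPM. Under the label at that stage, PA1 had 10.8, 10.2, 10.9, 10.1 and 8.82 CPM and PA2 had 8.98, 11.2, 9.59, 15.3 and 9.09 CPM. The 4 groups overlapped at E10.0.

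The arches did not differ in Ackr3 in 7 of the 8 tests at the threshold. PA1 was the higher arch in 21 of 33 embryos and PA2 in 12. At wildtype E10.5, PA1 was above PA2 in 3 of 3 embryos without overlap, with a difference of -0.59 ± 0.38 (adjusted p = 0.95), which passed in a fit limited to the compared groups. The share of all genes without overlap between the arches was not computed. At E9.5 under the label the difference of -0.89 ± 0.30 passed (adjusted p = 0.044). PA1 there had 6.67, 8.94, 41.9, 12.2 and 6.32 CPM and PA2 had 3.45, 5.88, 5.95, 7.19 and 7.15 CPM. The PA1 library of replicate 3 stood far above the others, and without it the difference was -0.45 (adjusted p = 0.3).

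The call at E9.5 was lost as well without PA1 replicate 4 (adjusted p = 0.082), without PA2 replicate 1 (0.13), 2 (0.076), 3 (0.07) or 5 (0.051) and in a fit limited to the compared groups (0.25). The same library bore on the step from E9.0 to E9.5 in PA1 under the label, 1.18 ± 0.32 (adjusted p = 0.024), which was 0.73 (adjusted p = 0.19) without it. That step was lost too without PA1 replicate 1 (0.11), 2 (0.059) or 3 (0.1) of E9.0 or replicate 4 of E9.5 (0.067), and in a fit limited to the compared groups (0.28). Between labels none of the 8 tests of Ackr3 passed, the lowest adjusted p being 0.058 in PA1 at E9.5 (0.75 ± 0.30). It passed with a pseudocount of 5 (adjusted p = 0.046) and in edgeR (0.0075), both with PA1 replicate 3 under the label included. That library had 41.9 CPM against a group median of 8.94 CPM. In PA1 at E10.5 the label libraries lay below the wildtype libraries, with 3 on each side, but the difference of -0.73 ± 0.38 did not pass (adjusted p = 0.37). In a fit limited to the compared groups the adjusted p was 0.039. The share of all genes that separate the labels without overlap was not computed.

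Ackr3 was high in 3 libraries together with 2 of the genes most like it. In PA1 replicate 3 at E9.5 under the label, where Ackr3 measured 41.9 CPM, Dkk2 measured 50 CPM against a group median of 2.45 and Plagl1 measured 176 CPM against 65.5. In wildtype PA1 replicate 4 at E9.0 (Ackr3 16.2 CPM), Dkk2 was at 19.9 CPM against 2.72 and Plagl1 at 83.3 CPM against 51.3. In PA2 replicate 4 at E9.0 under the label (Ackr3 12.4 CPM), Dkk2 was at 13.6 CPM against 1.25 and Plagl1 at 98.8 CPM against 45. The summed epithelial markers of these 3 libraries were 1325, 1050 and 1226 CPM, each the highest of its group, against group medians of 848, 809 and 1012 CPM. Their part in the Ackr3 values was not tested.

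Over the 16 group means of log2(CPM + 1), the genes with a mean of at least 5 CPM most like Ackr3 were Plagl1 (r = 0.958), Dkk2 (r = 0.949) and Dcaf4 (r = 0.940). Plagl1 encodes a zinc finger transcription factor and Dkk2 a secreted modulator of Wnt signalling. Across the 68 libraries after the group means were removed, Ackr3 and Dkk2 had r = 0.84 and Ackr3 and Plagl1 had r = 0.63. Ackr3 and Dcaf4 had r = 0.15. The 68 libraries include the 3 with high Ackr3 described above. Most like Cxcl12 were Hoxaas2 (r = 0.913), an antisense transcript of the Hoxa cluster, Lypd6b (r = 0.907) and Gpm6b (r = 0.903). Reads of an antisense gene and its sense partner cannot be told apart where the strand used in counting is not given. For Cxcr4 the 3 were Sorbs3 (r = 0.959), Uchl1 (r = 0.948) and Cd44 (r = 0.945), and for Cxcl14 they were Slc25a17 (r = 0.972), Lrrc49 (r = 0.971) and Cenpl (r = 0.971). Within groups, the genes named for Cxcl12, Cxcr4 and Cxcl14 had r from 0.11 (Hoxaas2) to 0.40 (Cenpl). Each r of the group means is over 16 groups that share stages and, in part, embryos. It is a description taken as the highest of 10510 genes, 10511 for Cxcr4. The names depend on the measure: of the 12, 5 were named again with Spearman's rho, 7 with a pseudocount of 5 and 9 without wildtype E10.0. Those named again with Spearman's rho were Lypd6b, Sorbs3, Dkk2, Slc25a17 and Cenpl.

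Among the 4 genes themselves, group means of Ackr3 and Cxcl14 had r = 0.88, those of Cxcr4 and Ackr3 r = -0.71 and those of Cxcr4 and Cxcl14 r = -0.61. Cxcl12 and Cxcr4 had r = 0.31. Within groups, across 68 libraries, the correlation of Cxcl12 and Cxcr4 was 0.03 and that of Ackr3 and Cxcl14 was 0.18.

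The other genes of the chemokine system were mostly sparse. Of 13 other CXC ligands, 5 were in the table and 3 were kept, and of 20 other chemokine ligands 5 were in the table and all 5 were kept. Of 20 other receptors, 9 were in the table and 7 were kept. In the 8 comparisons of the arches the CXC ligands gave 0 calls in 24 tests in limma, 2 of them with an unadjusted p under 0.05, the other ligands 5 higher and 0 lower in 40, and the other receptors 0 higher and 3 lower in 56. The shares of 12.5% for other ligands and 5.36% for other receptors stand beside 11.5% of the tests of all genes. Ccl24 was higher in PA2 in 3 comparisons, by 0.37 in wildtype at E9.5 (adjusted p = 0.048) and by 0.63 and 0.46 under the label at E9.5 and E10.0 (adjusted p = 0.00086 and 0.037), at a mean of 0.433 CPM. Between labels limma called 0 of 24 tests of CXC ligands and 0 of 40 of other ligands, with 1 and 4 at an unadjusted p under 0.05, and 3 of 56 tests of other receptors were lower under the label. Over all genes 7.2% of these tests were called.

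With stage these genes moved in both directions, against 17.3% of tests higher and 18.1% lower over all genes. Pf4 and Ppbp, chemokines of platelets and their precursors, rose from E9.0 to E10.5 in all 4 comparisons, by 1.86 to 2.84 and by 1.93 to 2.26. Ccl6 fell by between 3.15 and 3.49 in the same 4. Macrophage markers rose in these comparisons too, with 5, 5, 4 and 3 of the 5 kept markers called. These 3 chemokines were named after their values were seen.

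The machinery downstream of Cxcr4 was called between the arches about as often as other genes. Among 11 coupling and desensitisation genes, which include G protein subunits, arrestins and receptor kinases, 5 of 88 tests were higher and 3 lower in PA2, 9.09% in all against 11.5% of the tests of all genes in the same 8 comparisons. Grk3, a kinase that desensitises receptors, was higher in wildtype PA2 at E9.5 (0.57, adjusted p = 0.012) and E10.0 (0.53, adjusted p = 0.038). Among 10 genes of migration signalling, 7 of 80 tests were higher and 5 lower, or 15%. Pik3cg, a phosphoinositide kinase activated by G protein-coupled receptors, was higher in PA2 in 3 comparisons, by 0.67 to 0.82. Jak2, a kinase of cytokine signalling, was higher in wildtype PA2 at E9.0 (0.45, adjusted p = 0.017) and E9.5 (0.76, adjusted p = 4.8e-05). Between labels, 7 of 88 tests of coupling genes were higher under the label and none lower (7.95%, against 3.57% higher and 3.63% lower over all genes), 4 of them in PA2 at E10.5, where 6.48% of all genes were higher.

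Among 4 alternative ligands and processing genes, Mif, a cytokine that also binds Cxcr4, was lower in wildtype PA2 at E9.5 (-0.41, adjusted p = 0.0011) and E10.0 (-0.29, adjusted p = 0.039). It was also lower under the label in PA1 at E9.5 (-0.53, adjusted p = 2.1e-05) and in PA2 at E9.0 (-0.40, adjusted p = 0.0038) and E9.5 (-0.34, adjusted p = 0.024). A list made for the adrenomedullin arm, whose peptide Ackr3 removes, held Adm, Calcrl, Ramp1, Ramp2 and Ramp3. It gave 11 of 40 tests higher in PA2 (27.5%, against 6.33% of the tests of all genes) and none lower. Its median difference lay between 0.10 and 0.54 against medians of -0.02 to 0.02 over all tested genes. Of the higher calls, Ramp1 gave 2 in each label, so the share is not that of adrenomedullin receptor genes alone. Ramp1, a receptor accessory protein, was higher in PA2 by 1.60 and 0.96 in wildtype at E9.0 and E9.5 (adjusted p = 2.6e-07 and 0.0013) and by 1.38 and 0.66 under the label (adjusted p = 1.5e-05 and 0.034), at a mean of 0.805 CPM. Ramp2, another such protein, at a mean of 22.3 CPM, was higher in PA2 by 0.45 at wildtype E9.0 (adjusted p = 0.036) and by 0.54 and 0.58 under the label at E9.0 and E9.5 (adjusted p = 0.013 and 0.0064). From E9.0 to E10.5 this list gave 10 lower calls and 1 higher in 20 tests, where 18.1% of the tests of all genes were lower and 17.3% higher.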

How the data were processed

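RNA-seq of 68 libraries was analysed from 1 deposited table of normalised signal, in CPM (counts scaled to a common library total, here with the authors' trimmed-mean factors), with 21948 genes. Per the submitters' processing notes, bcl2fastq 2.18, TopHat2 2.1.1, R 3.3.2 and the mm10 build were used. The counting tool, its annotation and its strand setting are not given in the sources used here. Column totals ran from 926298 to 1051959, and 100% of the deposited values were whole multiples of 1 read within 0.01, which gave 8912251 to 20619153 recovered reads per library. The unit had been planned as CPM and was recorded as signal because of the scaling, with the test unchanged. Symbols were matched for 21921 identifiers.

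Values were tested as log2(CPM + 1) with limma 3.58.1 in R 4.3.3, with 16 group means over all 68 libraries, a trend in the variance and Benjamini-Hochberg adjustment over the 18428 genes of at least 1 CPM in at least 3 libraries, for each of 36 contrasts. All tests were two-sided. The procedure was tested on simulated independent libraries for 1 contrast, PA2 against PA1 in wildtype at E10.0, without the pairing of arches by embryo. Wildtype steps skip E10.0, because the wildtype libraries of that stage lie on the other side of the division described in the report. Arches of the same embryo carry the same replicate number, and the series text says that they come from 1 embryo. Deviations from the group means correlated between arches of an embryo with a median r of 0.35 over 33 pairs, 30 of them above 0.1, against -0.12 between embryos. Replicates differed beyond sampling noise in all 116 pairs (chi-square per degree of freedom at least 5.17).

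Alternatives were other pseudocounts and filters, only the compared groups, the embryo as a block, edgeR 4.0.16 on the recovered reads, and leaving out each library in turn. Leaving out 5 libraries with blood or yolk sac markers over 10 times their group median and above 50 CPM was chosen after the data were seen. The 4 genes and all lists were chosen with earlier results of these data known. Other genes were named by rule: the 3 with the highest r for each of the 4 genes, and from each pathway list up to 3 genes past the threshold in 1 direction in at least 2 arch comparisons of 1 label. Macrophage, cardiac, endothelial and other marker lists were used as descriptions. Reads carry no molecular identifiers.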

Additional observations from a re-analysis of the deposited data

Results flagged for a closer look

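In 48 groups of 4 or 5 libraries, counted over the 4 genes, 5 had 1 library far from the others by Dixon's criterion, which chance meets in about 1 in 20 groups. Ackr3 stood out in PA1 replicate 3 at E9.5 under the Hoxa2-/- label (41.9 CPM) and in PA1 replicate 4 at E9.0 under the label (6.5 CPM). Cxcr4 stood out in PA1 replicate 2 at E9.0 under the label (3.91 CPM). Cxcl14 stood out in wildtype PA1 replicate 2 at E9.0 (2.01 CPM) and in PA1 replicate 4 at E9.5 under the label (3.13 CPM).

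Between PA2 and PA1 under the label, 2 genes differed in how far they moved with stage (E10.5 against E9.0), by limma's test of the difference itself. For Cxcl12 it was larger in PA2 by 0.69 (log2, adjusted p = 0.014), with means rising from 98.5 to 176 CPM in PA2 and going from 83.5 to 92.4 CPM in PA1. For Cxcl14 the PA2 minus PA1 value was -2.20 (adjusted p = 0.012), with means rising from 1.35 to 8.64 CPM in PA2 and from 0.355 to 24.6 CPM in PA1.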

How the results depend on the processing

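Of 144 differences of the 4 genes, 41 passed the threshold. Of these, 30 passed in every alternative that kept the gene, and 28 also without each library in turn. The filter of 5 CPM in 3 libraries removes Cxcr4, so its calls were not tested there. A further 38 changed sign under some alternative, none of them called (lowest adjusted p = 0.6), and no log2 difference is given for these. Calls between the arches numbered 14, with 9 under a filter of 5 CPM in 3 libraries, which removes Cxcr4, 19 with the embryo as a replicate block and 12 to 15 without single libraries. The block gave 2 calls between labels, 0 for the label difference between arches, 13 between E9.0 and E10.5, 10 between adjacent stages and 2 for the change over time between arches, the same counts as without it. Between labels, 2 to 4 tests passed without single libraries, 4 of them without PA1 replicate 1 of E9.5 under the label. The change over time between arches kept 1 to 2 calls, 1 without PA1 replicate 1 or PA2 replicate 2 of E10.5 under the label. For Cxcr4, with 6 to 111 reads per library, depth limits what could be detected.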
